A study of Mus musculus with 10 samples.

Results

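Cxcl9, Cxcl10 and Cxcl11 encode the chemokines that bind the receptor CXCR3, and they are described here across all groups of a mouse macrophage experiment. They were taken by symbol from the deposited count table, as 3 of its 23284 genes, and all 3 were among the 12918 genes with enough counts to be tested. Bone-marrow-derived macrophages of the C57BL/6J strain, grown from marrow in macrophage colony-stimulating factor, were exposed to Kdo2-lipid A, a defined form of lipopolysaccharide core and an agonist of Toll-like receptor 4 (TLR4). Polyadenylated RNA was sequenced from untreated cells and from cells given 0.03 nM for 1 h, 0.03 nM for 2 h, 10 nM for 1 h or 10 nM for 2 h. The 5 groups had 2 libraries each, and the 2 experiments, described as independent in the labels, gave 1 library to every group. The labels do not say whether animals were pooled, so p-values measure the spread between these libraries. The untreated cells are labelled 0 h and no untreated cells were collected at 1 h or 2 h, so a change against them cannot be told apart from an effect of time in culture. The comparisons ask how a low and a high dose of one TLR4 ligand act on transcripts over the first hours.

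CXCR3 is carried mainly by activated T cells and natural killer cells, and its ligands draw these cells into inflamed tissue. In macrophages TLR4 signals through MyD88 to NF-kB, and through the adaptor TRIF to the kinase TBK1 and the factor IRF3, which switch on interferon beta. Secreted interferon then acts back on the cells through its receptor. The 3 ligand genes are classical interferon targets, Cxcl9 being known above all for its response to interferon gamma and Cxcl10 for direct control by NF-kB and IRF factors as well. In C57BL/6 mice Cxcl11 is transcribed but carries a frameshift, and RefSeq lists it as a transcribed pseudogene. Its values are therefore values of a transcript and not of a chemokine.

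The genes lie side by side on the minus strand of chromosome 5 in the mm9 build used by the count table. Cxcl9 spans chr5:92750357-92757105, Cxcl10 chr5:92775665-92777915 and Cxcl11 chr5:92788571-92792322, each with 4 exons. Their exonic lengths are 2905 bases for Cxcl9, 1100 bases for Cxcl10 and 1604 bases for Cxcl11. Art3 runs over Cxcl10 and Cxcl11 on the plus strand, but shares no exonic base with either and had 0 to 6 counts per library.

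The promoters are shown because the members differed in their response to dose and time. RefSeq sequences on GRCm38.p6 were found for 2 of the 3 genes. The lines give the 250 bases before each gene's start, read 5′ to 3′ on the minus strand, for Cxcl9 at chr5:92328080-92328329 and for Cxcl10 at chr5:92348890-92349139. Capitals mark matches to an interferon response element core (GAAANNGAAA), kappaB motifs of 9 letters (GGGNNTTCC) and 10 letters (GGGNNNTTCC), and an AP-1 motif (TGANTCA), searched on both strands.
Cxcl9: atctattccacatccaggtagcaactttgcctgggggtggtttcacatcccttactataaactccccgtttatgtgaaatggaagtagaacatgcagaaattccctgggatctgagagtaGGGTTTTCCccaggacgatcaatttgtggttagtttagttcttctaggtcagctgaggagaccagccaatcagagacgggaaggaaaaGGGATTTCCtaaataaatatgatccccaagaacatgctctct
Cxcl10: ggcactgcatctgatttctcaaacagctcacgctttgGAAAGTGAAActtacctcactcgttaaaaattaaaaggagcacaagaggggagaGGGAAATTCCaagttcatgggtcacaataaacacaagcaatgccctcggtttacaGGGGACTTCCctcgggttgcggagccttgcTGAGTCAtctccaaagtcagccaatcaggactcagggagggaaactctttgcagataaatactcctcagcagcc

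With position -1 as the base before the start, the Cxcl9 window held kappaB matches at -130 to -122 and at -42 to -34. The Cxcl10 window held 1 interferon response element match at -213 to -204, kappaB matches at -159 to -150 and -104 to -95, and 1 AP-1 match at -74 to -68. The kappaB match nearest the start of Cxcl10 fits both kappaB motifs, its last 9 letters being the shorter one. Both windows thus held kappaB letters, while the interferon response element and AP-1 letters were found in the Cxcl10 window alone. Of 32851 mouse promoter windows of the same length, 2.98% held the interferon response element core, 4.98% the 9-letter and 4.65% the 10-letter kappaB motif, and 6.75% the AP-1 motif. The interferon gamma activated site letters TTCNNNGAA, present in 7.02% of windows, matched in neither. The motifs were chosen after the sequences were seen, and a match describes letters, not binding. Likewise, the lack of a match to these letters does not show that a window lacks an element.

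Library totals ran from 33179599 to 42167096 counts. All 10 macrophage markers were above 1 CPM (counts scaled to a common library size) in the median library, with summed levels of 44653 to 46097 CPM at 10 nM for 2 h, against 37116 to 39738 CPM in untreated cells. Of 16 T and NK cell markers only Cd4 and Cd28 were above 1 CPM in the median library. Mean Cd4 was 35.5 CPM at 10 nM for 2 h against 33.3 CPM in untreated cells, and mean Cd28 51.7 CPM against 149 CPM. The 16 markers summed to 85.4 to 91.7 CPM at 10 nM for 2 h, against 179 to 186 CPM in untreated cells. The T cell receptor gene Cd3e had 0 to 4 counts. The killing genes Gzma, Gzmb and Prf1 were the only 3 of the 16 with 0 in every library. Other markers on the list were detected at low counts, among them Klrd1 with 8 to 37 and Klrb1c with 0 to 16. Summed markers of neutrophils were 179 to 181 CPM at 10 nM for 2 h, against 95.3 to 99.3 CPM in untreated cells, with 6 of 10 above 1 CPM in the median library. Most of that sum was Csf3r, a cytokine receptor gene of the myeloid lineage, at 139 to 144 CPM against 69.4 to 72.5 CPM, and the other 9 markers summed to 35.6 to 41.99 CPM against 22.8 to 29.9 CPM. Those of dendritic cells were 27.8 to 28.3 CPM against 16.8 to 20.1 CPM in the same groups, with 6 of 10 above 1 CPM, and those of B cells 6.94 to 7.25 CPM against 5.40 to 9.84 CPM, with 1 of 6. Those of stromal and endothelial cells were 71.1 to 126 CPM against 50.5 to 90.5 CPM, with 10 of 12 above 1 CPM. All these sums follow TMM scaling, a correction for library composition in which a lower factor gives a higher CPM. TMM factors were 0.775 to 0.788 at 10 nM for 2 h and 1.14 to 1.15 in untreated cells. Sums by library totals alone were not formed. The part of other cell types in the ligand levels was not tested. In bulk RNA, more cells expressing a ligand and more RNA per cell cannot be told apart.

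Cxcl10 was the most abundant of the ligand transcripts in every library. Its counts in experiments 1 and 2 were 699 and 657 in untreated cells, 1370 and 3098 at 0.03 nM for 1 h, and 6074 and 7485 at 0.03 nM for 2 h. At 10 nM it had 52994 and 53815 counts at 1 h and 137107 and 139323 counts at 2 h. No group's raw counts overlapped those of the next. The share of all genes with such an order was not determined, here or for the other ligands. After TMM scaling, a correction for library composition, the level was 16.2 ± 0.574 CPM in untreated cells, 53.6 ± 29.1 and 173 ± 9.0 CPM at 0.03 nM for 1 h and 2 h, and 1477 ± 77.6 and 4632 ± 186 CPM at 10 nM for 1 h and 2 h (SD, n = 2 in each group). Per base of transcript, Cxcl10 ranked 8th of all genes in both libraries of 10 nM for 2 h, where it took 0.355% and 0.369% of all counts, against places 3982 and 4165 in the untreated libraries.

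Cxcl9 was scarce until the high dose. It had 26 and 28 counts in untreated cells, 26 and 24 at 0.03 nM for 1 h, and 62 and 50 at 0.03 nM for 2 h. It reached 203 and 293 counts at 10 nM for 1 h and 2339 and 2938 counts at 10 nM for 2 h. The 0.03 nM libraries at 1 h lay at or below the untreated ones, and each later or higher group lay above all of these. Mean levels were 0.647 ± 0.0394 CPM in untreated cells, 0.601 ± 0.0365 and 1.45 ± 0.355 CPM at 0.03 nM for 1 h and 2 h, and 6.81 ± 1.33 and 88.6 ± 16.7 CPM at 10 nM for 1 h and 2 h (SD, n = 2 in each group).

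Cxcl11 was nearly undetected in untreated cells, with 0 and 4 counts. It had 6 and 17 counts at 0.03 nM for 1 h and 21 and 20 at 0.03 nM for 2 h. At 10 nM it had 330 and 411 counts at 1 h and 1850 and 2497 counts at 2 h. No group's raw counts overlapped those of the next, although 0.03 nM groups differed by as few as 3 counts. Cxcl11 at 0.03 nM for 1 h was not called apart from untreated cells (edgeR adjusted p = 0.557) or from 0.03 nM for 2 h (edgeR adjusted p = 0.448). The 10 nM levels were 10.2 ± 0.935 CPM at 1 h and 73.1 ± 17.4 CPM at 2 h (SD, n = 2 each), and no other group exceeded a mean of 0.527 CPM.

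**Figure D1:**
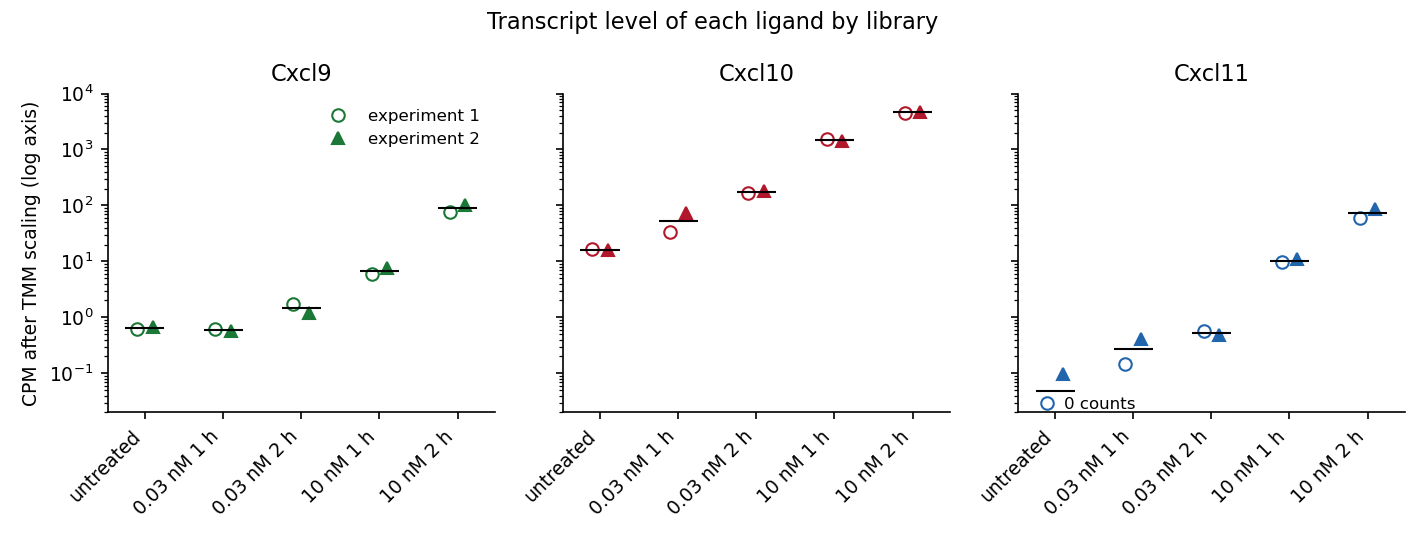
Level of each ligand transcript in CPM after TMM scaling, on a log axis, by group; open circles are experiment 1, filled triangles experiment 2, and bars are group means. Cxcl10 stands above Cxcl9 and Cxcl11 in every group, and the untreated Cxcl11 library with 0 counts is drawn at the foot of its panel.

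Set per kilobase of exon, the 3 transcripts kept one leader and changed places behind it. Cxcl10 made up 98.0% to 99.6% of their summed level per length in every library. The ratio of Cxcl9 to Cxcl11 per length was 3.87 in the untreated library of experiment 2, from 28 Cxcl9 and 4 Cxcl11 counts, and could not be formed in the other, where Cxcl11 was at 0. In experiments 1 and 2 it was 2.39 and 0.780 at 0.03 nM for 1 h, and 1.63 and 1.38 at 0.03 nM for 2 h. At 10 nM it was 0.340 and 0.394 for 1 h and 0.698 and 0.650 for 2 h. Cxcl11 was thus ahead of Cxcl9 in all 4 libraries of 10 nM. The lead of Cxcl10 over Cxcl9 per length was 155-fold and 125-fold at 10 nM for 2 h, against 689-fold and 485-fold at 10 nM for 1 h. That ratio was thus lower at 2 h in both experiments.

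At the high dose all members rose at both times. Fitted with edgeR's quasi-likelihood test over all genes and Benjamini-Hochberg adjustment, Cxcl9 at 10 nM for 2 h was higher than in untreated cells by 7.09 ± 0.22 on the log2 scale (SE, adjusted p = 2.07e-10). Cxcl10 was higher by 8.16 ± 0.44 (edgeR adjusted p = 5.27e-06). Cxcl11 was higher by 10.48 ± 0.43 (edgeR adjusted p = 1.4e-08), a fitted value that rests on 4 untreated counts. As a ratio of summed counts, Cxcl11 was 1519-fold higher, with a 95% counting interval of 593 to 5579. Within experiments 1 and 2, Cxcl9 was 124-fold and 149-fold higher and Cxcl10 was 270.4-fold and 301-fold higher. Over all genes tested, 28.6% were called higher in the same comparison (adjusted p below 0.05).

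At 10 nM for 1 h the log2 changes against untreated cells were 3.39 ± 0.24 for Cxcl9 (SE, edgeR adjusted p = 4.09e-07), 6.51 ± 0.41 for Cxcl10 (edgeR adjusted p = 2.62e-05) and 7.64 ± 0.49 for Cxcl11 (edgeR adjusted p = 9.44e-07). All members were called, against 18.5% of all genes called higher. Cxcl11 had 741 summed counts against 4, a ratio of 214 with a counting interval of 83.0 to 786. Cxcl9 therefore had the smallest fitted change of the 3 genes at 1 h, and its interval of 2.86 to 3.92 lay below those of both others.

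At 0.03 nM for 2 h all members were called higher than in untreated cells, against 6.45% of all genes. Cxcl10 rose by 3.41 ± 0.36 (SE, edgeR adjusted p = 0.00164), and was 9.99-fold and 11.3-fold higher within experiments 1 and 2. Cxcl9 rose by 1.14 ± 0.30 (edgeR adjusted p = 0.0306), and was 2.74-fold and 1.77-fold higher within them. That call was lost in 3 of 10 fits that left out 1 library, with adjusted p of 0.181 without untreated replicate 1, 0.135 without untreated replicate 2 and 0.130 without the experiment 1 library at 0.03 nM for 2 h. Cxcl11 had 41 summed counts against 4, a ratio of 10.9 with a counting interval of 3.96 to 41.98 (fitted 3.36 ± 0.87, edgeR adjusted p = 0.0351). Its call was lost in 5 of those 10 fits, at adjusted p of 0.0542 to 0.175, on leaving out untreated replicate 1 or any single library of 0.03 nM for 2 h or of 10 nM for 1 h. Without untreated replicate 2, which leaves the untreated group at 0 counts, Cxcl11 was still called.

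At 0.03 nM for 1 h no member was called against untreated cells, and 1.42% of all genes were called higher. With the same edgeR test, 2 of the 3 members had an unadjusted p below 0.05. The share of all genes at that unadjusted cut-off was not determined. Cxcl10 was higher by 1.72 ± 0.35 on the log2 scale (SE, edgeR adjusted p = 0.108). Of 7 alternative fits other than leaving out 1 library, 2 called it. These were DESeq2 (adjusted p = 0.000109) and the experiment as a block in the edgeR fit (adjusted p = 0.0246). Not called were edgeR with RLE scaling (adjusted p = 0.0926), with library totals (adjusted p = 0.106) and without the low-count filter (adjusted p = 0.269). Nor was it called with limma on the deposited log2 values (adjusted p = 0.120) or with edgeR on only the groups compared (adjusted p = 0.551). Leaving out 1 library of 0.03 nM for 1 h gave a fitted change of 2.19 without experiment 1 and 1.02 without experiment 2. Each of those fits removes the spread between the 2 libraries of that group, so it cannot test the rise. Within experiments 1 and 2 it was 1.98-fold and 4.69-fold higher, so both experiments shared the direction but not the size. Cxcl9 differed by -0.11 ± 0.35 (edgeR adjusted p = 0.999), with an interval of -0.87 to 0.66. Cxcl11 had 23 summed counts against 4, a ratio of 5.77 with a counting interval of 1.97 to 22.9 (edgeR adjusted p = 0.557).

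**Figure D2:**
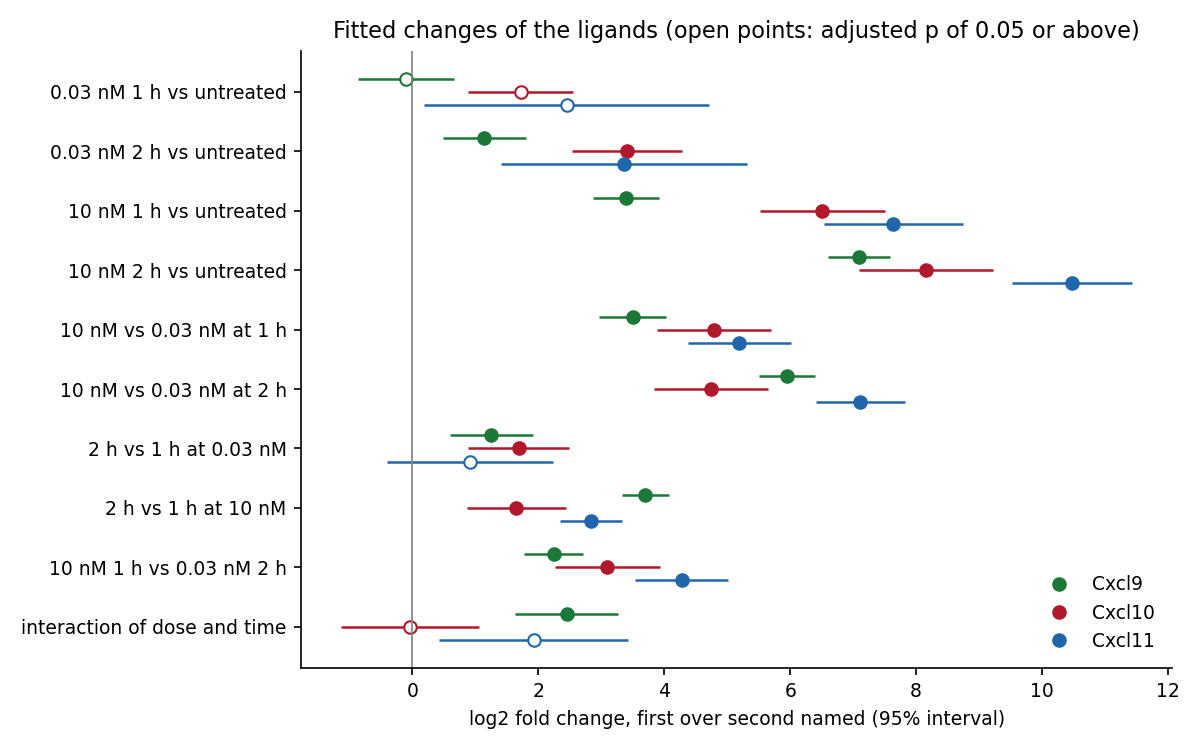
Fitted log2 fold change of each ligand in 10 comparisons with its 95% interval; the group named first is over the second, and open points were not called. Against untreated cells at 10 nM for 2 h the points stand at 7.09 for Cxcl9, 8.16 for Cxcl10 and 10.48 for Cxcl11, and for the interaction at 2.45, -0.04 and 1.92.

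The comparison of doses at one time does not involve the untreated cells. At 2 h, 10 nM gave higher levels than 0.03 nM by 5.95 ± 0.20 for Cxcl9 (SE, edgeR adjusted p = 9.88e-10), 4.75 ± 0.37 for Cxcl10 (edgeR adjusted p = 4.99e-05) and 7.11 ± 0.31 for Cxcl11 (edgeR adjusted p = 4.61e-08), where 25.6% of all genes were called higher. At 1 h the differences were 3.50 ± 0.24 for Cxcl9 (edgeR adjusted p = 4.17e-07), 4.78 ± 0.38 for Cxcl10 (edgeR adjusted p = 8.94e-05) and 5.19 ± 0.37 for Cxcl11 (edgeR adjusted p = 2.25e-06), where 18.0% of all genes were called higher. Put as levels, Cxcl10 at 0.03 nM reached 3.63% of its 10 nM CPM at 1 h and 3.73% at 2 h. Cxcl9 reached 8.83% at 1 h, where its 0.03 nM level was that of untreated cells, and 1.63% at 2 h. Cxcl11 reached 2.70% at 1 h and 0.721% at 2 h. Within experiments 1 and 2, Cxcl10 at 10 nM was 27.1-fold and 26.6-fold above 0.03 nM at 2 h, and 46.4-fold and 19.2-fold above it at 1 h. The mean dose ratio of Cxcl10 at 1 h thus stands between experiments that differed, and its log2 value of 4.78 was 4.32 on leaving out experiment 1 at 0.03 nM for 1 h and 5.49 on leaving out experiment 2. The percentages of Cxcl9 and Cxcl11 were lower at 2 h, a difference between times that the test of the interaction called for Cxcl9 only, with edgeR as fitted here.

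Over time at 10 nM, levels at 2 h were above those at 1 h by 3.70 ± 0.17 for Cxcl9 (SE, edgeR adjusted p = 4.62e-08), 1.65 ± 0.33 for Cxcl10 (edgeR adjusted p = 0.00688) and 2.84 ± 0.22 for Cxcl11 (edgeR adjusted p = 5.81e-06), and 21.3% of all genes were called higher. Within experiments 1 and 2 the Cxcl9 ratio was 13.1-fold and 13.0-fold, that of Cxcl10 2.94-fold and 3.35-fold, and that of Cxcl11 6.37-fold and 7.86-fold. The order of the genes by this ratio was the same in both experiments.

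At 0.03 nM, the change over the same hour was called for 2 of the 3 members, against 3.51% of all genes. Cxcl9 at 2 h was above 1 h by 1.25 ± 0.30 (SE, edgeR adjusted p = 0.0343) and Cxcl10 by 1.69 ± 0.33 (edgeR adjusted p = 0.0411), while Cxcl11 differed by 0.91 ± 0.59 (edgeR adjusted p = 0.448; interval -0.40 to 2.23). The Cxcl9 call was lost in 6 of 10 fits without 1 library, with adjusted p of 0.0524 to 0.179, namely those without any single library of the untreated, 0.03 nM 1 h or 0.03 nM 2 h groups. The Cxcl10 call was lost in 8 of them, at 0.0637 to 0.219, and stood only where a library of 0.03 nM for 1 h was left out. Leaving out a library of 0.03 nM for 1 h removes the spread between the 2 libraries of that group. These low-dose changes over time are close to the threshold.

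The interaction of dose and time, the change over the hour at 10 nM less that at 0.03 nM, set the genes apart. For Cxcl9 it was 2.45 ± 0.37 (SE, edgeR adjusted p = 0.000663), with 2.27 in experiment 1 and 2.64 in experiment 2. For Cxcl11 it was 1.92 ± 0.67 (edgeR adjusted p = 0.0705), and 0.0260 with the experiment as a block. The within-experiment values of Cxcl11 were 0.68 and 2.74. For Cxcl10 it was -0.04 ± 0.46 (edgeR adjusted p = 0.974), with an interval of -1.14 to 1.06 and within-experiment values of -0.78 and 0.47. Leaving out a 0.03 nM 1 h library gave Cxcl10 a value of opposite sign by library, 0.43 without experiment 1 and -0.74 without experiment 2. Each of those fits removes the spread between the 2 libraries of that group. The Cxcl9 difference was called in all 10 fits that left out 1 library, where 10.4% of all genes had a called positive interaction and 11.6% a called negative one.

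The order of the groups was alike for the 3 genes above the lowest pair. A short exposure to the high dose gave more RNA than a long one to the low dose: 10 nM for 1 h was above 0.03 nM for 2 h by 2.25 for Cxcl9 (edgeR adjusted p = 8.81e-06), 3.10 for Cxcl10 (edgeR adjusted p = 0.000695) and 4.28 for Cxcl11 (edgeR adjusted p = 6.99e-06), where 18.4% of all genes were called higher. This comparison was added after the data were seen. Neighbouring groups in the order that were not called apart were 0.03 nM for 1 h and untreated cells for all members, and 0.03 nM for 2 h and 1 h for Cxcl11.

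For Cxcl10 and Cxcl11 the experiments stood apart most at 0.03 nM for 1 h. There Cxcl10 had 74.2 CPM in experiment 2 and 33.01 CPM in experiment 1, a ratio of 2.25, and Cxcl11 had a ratio of 2.82 from 17 and 6 counts. Cxcl9 had a ratio of 0.918 there. Its ratio furthest from 1 was 0.705 at 0.03 nM for 2 h, from 50 and 62 counts. The log2 counting interval of that ratio, -1.07 to 0.056, included 0. At 10 nM the Cxcl9 ratios were 1.32 at 1 h and 1.31 at 2 h, with log2 counting intervals of 0.14 to 0.67 and 0.31 to 0.47. In untreated cells the Cxcl10 ratio was 0.951. Other interferon genes differed at 0.03 nM for 1 h: the ratio was 2.77 for Irf7, a factor that amplifies interferon output, and 2.13 for Rsad2, an antiviral enzyme. In the same libraries the ratio was 1.33 for Ifnb1 and 1.21 for Irf1, and 18 of 19 NF-kB target genes were higher in experiment 2, with a median log2 ratio of 0.41. In untreated cells 15 of those 19 were also higher in experiment 2, with a median of 0.11. Higher levels in experiment 2 were seen outside the interferon lists too. All 27 antiviral genes listed were higher in experiment 2 at 0.03 nM for 1 h, with a median log2 ratio of 1.04, and all 27 were higher in untreated cells too, with a median of 0.51. Stromal and endothelial markers were also higher in experiment 2 in every group, for 10 or 11 of 11 genes tested, with medians of 0.67 to 1.06. Their summed level was 57.9 and 94.1 CPM in the lower and higher library of 0.03 nM for 1 h, and 50.5 and 90.5 CPM in those of untreated cells. The share of all genes higher in experiment 2 was not determined, so these counts stand without a background. The part of any of these in the spread of Cxcl10 was not tested.

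**Figure D3:**
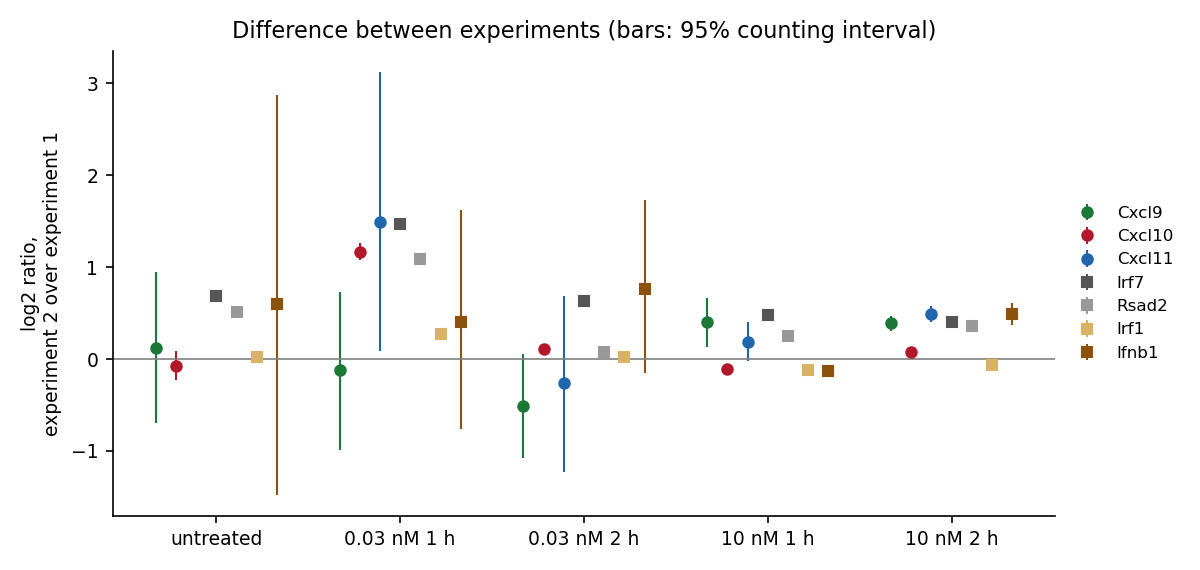
Log2 ratio of experiment 2 over experiment 1 by group for the 3 ligands (circles) and 4 interferon-related genes (squares); bars are 95% counting intervals, and Cxcl11 in untreated cells has no ratio because 1 library is at 0. At 0.03 nM for 1 h Cxcl10 stands at 1.17, Irf7 at 1.47 and Rsad2 at 1.09, while Cxcl9 stands at -0.12.

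The genes upstream of the ligands changed unequally. Of 16 genes of interferon production and type I interferon signalling, 1 was called higher at 0.03 nM for 1 h, 4 at 0.03 nM for 2 h, 10 at 10 nM for 1 h and 15 at 10 nM for 2 h, each against untreated cells, and none of the 16 was called lower in these comparisons. Of all genes tested, 1.42%, 6.45%, 18.5% and 28.6% were called higher in the same comparisons. Their median log2 changes were 0.12, 0.21, 0.47 and 0.93 in that order of groups, and the medians of all genes tested lay between -0.03 and 0.00. The gene called at 0.03 nM for 1 h was Ifnar1, a chain of the type I interferon receptor, and that call was lost in 5 of 10 fits without 1 library, those without either library of the untreated or 10 nM 1 h groups or without experiment 2 at 0.03 nM for 1 h. With each library scaled by its total alone, 8 were called higher at 10 nM for 2 h and 6 at 10 nM for 1 h. The shares above are not the background for these 2 counts. With library totals, 9801 of all genes were called at 2 h and 8035 at 1 h, of which 19.4% and 15.9% were higher.

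Ifnb1, which encodes interferon beta, had its highest mean at 10 nM for 1 h, while the ligands had theirs at 2 h. It averaged 0.120 ± 0.0349 CPM in untreated cells, 0.336 ± 0.0665 and 0.590 ± 0.214 CPM at 0.03 nM for 1 h and 2 h, and 98.3 ± 6.12 and 39.6 ± 9.45 CPM at 10 nM for 1 h and 2 h (SD, n = 2 in each group). At 10 nM it was lower at 2 h than at 1 h by 1.31 ± 0.15 on the log2 scale, a fitted change of -1.31 (SE, edgeR adjusted p = 3.35e-05). Ticam1, the gene of TRIF, rose by 1.56 at 10 nM for 1 h (edgeR adjusted p = 1.31e-07) and by 0.86 at 2 h (edgeR adjusted p = 9.93e-06). Ifna4, an interferon alpha gene, had counts at 10 nM alone, with at most 33 in a library. Stat2, part of the complex that carries the type I signal, averaged 401 ± 32.4 CPM at 10 nM for 2 h against 177 ± 46.0 CPM in untreated cells (SD, n = 2 each). That was a rise of 1.18 ± 0.29 (SE, edgeR adjusted p = 0.00986), not called with library totals as scaling.

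Ifng, the gene of interferon gamma, had 0 counts in every library. The other 7 genes of its signalling pathway on the list were tested, and against untreated cells 2 were called higher at 0.03 nM for 1 h, 4 at 0.03 nM for 2 h, 5 at 10 nM for 1 h and 6 at 10 nM for 2 h. The shares of all genes called higher were 1.42%, 6.45%, 18.5% and 28.6%. Called lower were 0, 1, 1 and 1 of the 7, where 3.37% of all genes were called lower at 0.03 nM for 2 h, 18.3% at 10 nM for 1 h and 30.1% at 10 nM for 2 h. The median log2 changes were 0.13, 0.60, 0.63 and 0.84 in the order of groups given first. The gene called lower was Irf8 at 0.03 nM for 2 h and at 10 nM for 1 h, and Ciita, the transactivator of MHC class II genes, at 10 nM for 2 h, with a change of -1.38 ± 0.16 (SE, edgeR adjusted p = 2.74e-05). Irf1, a factor that binds interferon response elements, averaged 100.1 ± 0.865 CPM in untreated cells, 208 ± 27.8 and 226 ± 3.02 CPM at 0.03 nM for 1 h and 2 h, and 944 ± 54.6 and 1786 ± 53.3 CPM at 10 nM for 1 h and 2 h (SD, n = 2 in each group). It rose in each stimulated group against untreated cells, by 4.16 ± 0.10 at 10 nM for 2 h (SE, edgeR adjusted p = 4.14e-11). At 0.03 nM for 1 h, where no ligand was called, Irf1 rose by 1.06 ± 0.09 (edgeR adjusted p = 6.76e-05).

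Socs1, an inhibitor of JAK kinases that interferon induces, averaged 1.41 ± 0.225 CPM in untreated cells, 6.16 ± 0.156 CPM at 10 nM for 1 h and 146 ± 12.0 CPM at 10 nM for 2 h (SD, n = 2 each). It rose by 6.69 ± 0.32 at 2 h (SE, edgeR adjusted p = 2.60e-07) and by 2.12 ± 0.34 at 1 h (edgeR adjusted p = 0.0013). Jak2, the kinase of the interferon gamma receptor, rose by 4.18 ± 0.12 at 10 nM for 2 h (SE, edgeR adjusted p = 8.91e-11) and by 2.75 ± 0.11 at 1 h (edgeR adjusted p = 2.52e-09). Irf8, a factor of the myeloid lineage that interferon gamma induces, had a called difference of 0.84 at 10 nM for 2 h (edgeR adjusted p = 1.74e-06) and of -0.47 at 10 nM for 1 h (edgeR adjusted p = 0.000409).

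Antiviral interferon-stimulated genes were called mostly at 10 nM for 2 h. Of 27 such genes, 25 were called higher at 10 nM for 2 h against untreated cells, with a median log2 change of 2.29, and 8 at 10 nM for 1 h, with a median of 0.48. Of all genes 28.6% and 18.5% were called higher in these comparisons. None was called at 0.03 nM for 2 h or for 1 h with edgeR. At 0.03 nM for 2 h, 1 had an unadjusted p below 0.05, DESeq2 called 1, limma on the deposited log2 values called 0 and the fit with the experiment as a block called 7. At 0.03 nM for 1 h each of these counts was 0. At 10 nM for 1 h, 16 were called higher with the block, and fewer than the 8 of the main fit without untreated replicate 1. The shares of all genes called in these alternative fits are not given here. The leading genes were Oasl1 (5.63 ± 0.64 at 10 nM for 2 h, SE, edgeR adjusted p = 0.000353), Mx2 (6.00 ± 0.48, edgeR adjusted p = 6.40e-05) and Rsad2 (5.81 ± 0.45, edgeR adjusted p = 4.76e-05), all below the change of each ligand.

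NF-kB target genes were mostly called at the low dose already. Of 19, 15 were called higher at 0.03 nM for 1 h, 18 at 0.03 nM for 2 h, and 19 at 10 nM for 1 h and for 2 h, each against untreated cells. The medians were 1.24, 2.40, 4.60 and 4.66, and the shares of all genes called higher were 1.42%, 6.45%, 18.5% and 28.6%. Cxcl1, a neutrophil chemokine, rose by 5.82 ± 0.19 at 0.03 nM for 1 h (SE, edgeR adjusted p = 2.63e-08), where Cxcl10 differed by 1.72 and was not called. At 10 nM for 2 h Cxcl1 was higher by 10.20, Cxcl2, another neutrophil chemokine, by 9.27, and Il1a, a cytokine, by 10.66 (edgeR adjusted p of 6.70e-12, 1.05e-08 and 8.16e-07).

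The interaction of dose and time had opposite signs in these lists. Of the 27 antiviral genes, 13 had a called positive interaction and 0 a called negative one, with a median of 1.57. The count of 13 was 25 with the block, and it also moved on leaving out 1 library. It was lowest without experiment 2 at 0.03 nM for 2 h and highest without experiment 1 at 0.03 nM for 1 h. The shares of all genes called in these alternative fits are not given here. Of the 19 NF-kB genes, 0 had a called positive and 10 a called negative interaction, with a median of -0.87. Of all genes, 10.4% had a called positive and 11.6% a called negative interaction, and their median was -0.02. Cxcl9 at 2.45 and Cxcl11 at 1.92 were above the antiviral median, and Cxcl10 at -0.04 was between the medians. These lists were drawn up with earlier results of the same data known, and no test of the ligands against them was made.

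**Figure D4:**
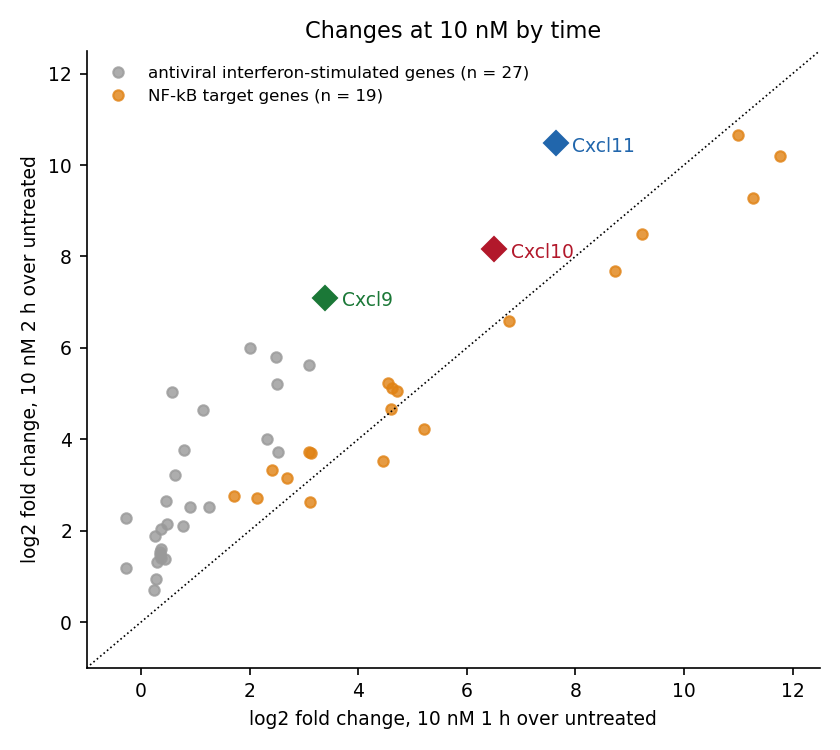
Log2 fold change over untreated cells at 10 nM for 1 h (horizontal) and 2 h (vertical) for the 3 ligands (diamonds), 27 antiviral genes (grey) and 19 NF-kB targets (orange); the dotted line marks equal change. Cxcl9 at 3.39 and 7.09, Cxcl10 at 6.51 and 8.16 and Cxcl11 at 7.64 and 10.48 lie above the line and above every antiviral gene on the vertical axis.

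On the receptor side, Cxcr3 itself was present at 5.59 ± 1.09 CPM at 10 nM for 2 h and 7.69 ± 0.00258 CPM in untreated cells (SD, n = 2 each), a called difference of -0.46 ± 0.16 (SE, edgeR adjusted p = 0.0277). That call was lost with DESeq2 (adjusted p = 0.0514) and on leaving out either untreated library or experiment 2 at 10 nM for 2 h. Pf4, a platelet chemokine reported to bind a form of CXCR3 in humans, rose by 1.09 ± 0.11 (edgeR adjusted p = 3.62e-06). Dpp4, a peptidase that trims CXCR3 ligands, differed by 0.85 ± 0.34 (edgeR adjusted p = 0.0503). It was called with DESeq2 (adjusted p = 0.0489), limma on the deposited log2 values (adjusted p = 0.0323) and the experiment as a block (edgeR adjusted p = 0.0379), and differed by 0.30 with library totals as scaling (edgeR adjusted p = 0.450). Cxcr4, the receptor of another chemokine, had 6.30 CPM at 10 nM for 2 h against 160 CPM in untreated cells. Cxcr7, a scavenging receptor that binds CXCL11, had 0 to 2 counts and was not tested. Of the 4 genes tested in this group, 1 was called higher and 2 lower at 10 nM for 2 h, where 28.6% of all genes were called higher and 30.1% lower, so these counts are near the background.

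Genes beside the ligands on the chromosome changed less. At 10 nM for 2 h against untreated cells, Nup54 was higher by 2.02 ± 0.08 (SE, edgeR adjusted p = 1.11e-09), Sdad1 by 1.63 ± 0.13 (edgeR adjusted p = 3.57e-07) and Naaa by 0.55 ± 0.08 (edgeR adjusted p = 7.48e-05), the last turning to -0.0098 with library totals as scaling. Scarb2 differed by -0.02 ± 0.08 (edgeR adjusted p = 0.824). Ppef2 had 2 to 7 counts and Fam47e 0.

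Each ligand had its own nearest profiles among 1628 genes compared, by Pearson correlation of log2 CPM over the 10 libraries, given as a description since the libraries share their 5 groups. Cxcl9 was most like Kpna3 (r = 0.998), followed by Stard5, Ddhd1, Fbxw11 and Stard7. Cxcl10 was most like Cxcl3 (r = 0.998), a neutrophil chemokine gene, followed by Cd40, D8Ertd82e, Sod2 and Tnip3. Cxcl11 was most like Arhgef3 (r = 0.997), followed by Etv3, Zfp800, Il17ra and Rhbdf2. Among themselves the ligands correlated at 0.983 for Cxcl10 with Cxcl11, 0.959 for Cxcl9 with Cxcl11 and 0.928 for Cxcl9 with Cxcl10. No ligand was among another's 5 nearest genes.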

How the data were processed

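RNA of 10 libraries was sequenced after directional library preparation, per the labels' protocols. Tools listed, without roles, in the submitters' processing notes are featureCounts 1.4.5-p1 (Subread), TopHat2 2.0.11, DESeq2 and bcl2fastq 2.15.0.4, with mm9 as the genome. The deposited raw counts are whole reads per gene over exons, and exonic lengths and coordinates are those of the count table, per the file headers. The authors also deposited regularised log2 (rlog) values, used here as an alternative. Whether counting used strand is not given in the sources used here.

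R 4.3.3 with edgeR 4.0.16 was used for the counts. Low genes were removed by filterByExpr, libraries were scaled by TMM, and a robust quasi-likelihood model with 1 mean for each of the 5 groups was fitted to all libraries. A gene was called in a contrast where its p there, adjusted by Benjamini and Hochberg over the 12918 genes, was below 0.05. Of 10 contrasts, 9 were planned and 1 was added after the data were seen. The added one was 10 nM for 1 h against 0.03 nM for 2 h. The SE is the log2 fold change divided by the root of F. The fit was checked on simulated counts for 10 nM for 2 h against untreated cells. It recovered 85 of 100 genes changed 2-fold and 99 of 100 changed 4-fold, with 9 false calls. The simulated libraries shared a common mean profile apart from these genes, so the check cannot test the scaling. The library totals of 33179599 to 42167096 counts set the precision, and intervals of count ratios (95%) cover counting error only.

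The labels name the experiment of each library, and this was taken as the pairing. Deviations from group means correlated at 0.0397 to 0.236 between groups (median 0.177, above 0.1 in 7 of 10 pairs of groups). The main fit has no block, and the block is an alternative. Others were RLE scaling, scaling by library totals, no low-count filter, DESeq2 1.42.0, limma 3.58.1 on the rlog values, only the groups compared, and each library left out in turn. Scaling by totals moved the median of all genes, to -0.59 at 10 nM for 2 h and -0.38 at 10 nM for 1 h against untreated cells, and the share of calls that were higher to 19.4% and 15.9%, against 48.8% and 50.3% under TMM. Changes are given relative to TMM.

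The ligands and the lists were chosen with earlier results of these data known. Named beside the ligands were genes of the 3 lists of receptors and interferon signalling, the 3 members of the antiviral and NF-kB lists with the largest mean change, the 5 genes most like each ligand among genes ranging over at least 2 log2 units between group means (prior count 2), 3 neighbours on each side, and markers above 1 CPM in the median library. Cd3e, Gzma, Gzmb, Prf1, Klrd1 and Klrb1c were named after their values were seen. Promoter sequences are from RefSeq.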

Additional observations from a re-analysis of the deposited data

Results flagged for a closer look

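The Cxcl9 interaction of dose and time differed from 0. The change over the hour was larger at 10 nM than at 0.03 nM by 2.45 on the log2 scale (edgeR adjusted p = 0.000663), a tested difference between the doses with the same sign in both experiments.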

How the results depend on the processing

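The calls at 10 nM, against untreated cells and against 0.03 nM, kept direction and side of the threshold for all 3 ligands under all alternatives, and RLE scaling and library totals moved no call in the 10 comparisons of the 3 ligands. Low-dose calls moved, and the cause was not tested. With only the groups compared in the fit, Cxcl9 at 0.03 nM for 2 h (1.15), Cxcl9 over time at 0.03 nM (1.25), Cxcl10 over time at 0.03 nM (1.68) and Cxcl11 at 0.03 nM for 2 h (3.37) were no longer called, and the Cxcl11 interaction (1.92) was. Cxcl11 at 0.03 nM for 1 h gave no value there, being filtered out. Without the low-count filter, Cxcl10 over time at 0.03 nM (1.69) and Cxcl11 at 0.03 nM for 2 h (3.36) were lost. Cxcl10 at 0.03 nM for 1 h was called with DESeq2 (1.73) and with the replicate block (1.68), and the Cxcl11 interaction with DESeq2 (1.94), limma on rlog values (1.90) and the block (1.91); the block changed no other call of a ligand. The Cxcl10 interaction was 0.28 in limma on rlog values, where it was not called, and Naaa at 10 nM for 2 h was -0.0098 with library totals. Leaving out 1 library gave ranges of 0.88 to 1.4 for Cxcl9 at 0.03 nM for 2 h, 0.99 to 1.5 for Cxcl9 over time at 0.03 nM, 1.02 to 2.19 for Cxcl10 at 0.03 nM for 1 h, 1.22 to 2.39 for Cxcl10 over time at 0.03 nM, -0.74 to 0.43 for its interaction, 2.40 to 7.30 for Cxcl11 at 0.03 nM for 2 h and 1.00 to 2.47 for its interaction. A group left with 1 library is assumed to vary like the others. Counts of genes called at 0.03 nM moved most, with 660 at 2 h against 1 h (198 to 2833 over alternatives), 198 at 1 h against untreated cells (78 to 261) and 1268 at 2 h (650 to 3128).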
